A study of Mus musculus with 2 samples.

Results

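Glul, Glud1, Gpt, Gpt2, Got1 and Got2 encode the enzymes by which muscle builds glutamine and alanine and moves amino groups between glutamate, pyruvate and oxaloacetate. They were taken as the non-control probes that the scanner files name with these 6 symbols, which gave 7 probes, 1 each for 5 genes and 2 for Glud1, of 55681 probes in all. The series holds 34740 gene names, and the 6 genes are those with a matching name. The rule of choice used no measured value, but the members were chosen with earlier results of these data known.

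The muscle came from male mice of the strain CD2F1/Slc, 11 weeks old. The control sample was taken after an injection of PBS, and the C26 sample after 1000000 colon 26 carcinoma cells in 100 µL of PBS had been placed under the skin of the flank, a mouse model of cancer cachexia, the wasting that goes with some cancers. Each group was 1 one-colour array, so there is no replicate, and the values below describe 2 arrays and not the conditions. The labels do not name the muscle, the time after implantation, the feeding state or whether animals were pooled.

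Skeletal muscle is a main source of the glutamine and alanine in blood. Amino groups from amino acids broken down in the fibre, the branched-chain ones above all, are first collected on glutamate, and then leave the muscle on glutamine or on alanine, which the liver, kidney and gut take up. Glucocorticoids are known to raise glutamine synthetase in rat muscle. The transaminases run both ways, so the level of their mRNA does not say in which direction nitrogen flows.

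The probe of Gpt is the one of the 7 whose place in the gene shows from the files. It covers 131 bases of the genome with 60 bases of sequence, so it skips 71 bases, as a probe on spliced RNA across an intron would. Its sequence is shown because it alone of the 7 reads across such a join, at chr15:76529767-76529897 on mm9, plus strand.
Gpt probe: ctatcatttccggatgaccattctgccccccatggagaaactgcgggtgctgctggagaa

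The other 6 probes each covered 60 unbroken bases of the genome. On mm9, the Glul probe lay at chr1:155756765-155756824 and began at base 2702 of the transcript. The Glud1 probes lay at chr14:35157289-35157348 and chr14:35157940-35157999 and began at bases 2227 and 2878. The Gpt2 probe lay at chr8:88050856-88050915 (base 2994), the Got1 probe on the minus strand at chr19:43574278-43574337 (base 1962) and the Got2 probe on the minus strand at chr8:98388339-98388398 (base 1983). The Gpt probe began at base 1492. No annotation on mm9 was used, so whether these 6 probes lie in exons or UTRs was not looked up.

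Promoter windows of RefSeq, from 250 bases before the transcript start to 50 after it, were matched for 5 of the 6 genes on GRCm38.p6. The windows of the 2 genes with the highest ratios and of the gene with the lowest are shown. Capitals mark the letters of a CCAAT box (CCAAT), a nuclear receptor half-site (AGGTCA) or the ATF4 amino acid response core (TGATGNAA), on either strand.
Glul, chr1:153899679-153899978, plus strand: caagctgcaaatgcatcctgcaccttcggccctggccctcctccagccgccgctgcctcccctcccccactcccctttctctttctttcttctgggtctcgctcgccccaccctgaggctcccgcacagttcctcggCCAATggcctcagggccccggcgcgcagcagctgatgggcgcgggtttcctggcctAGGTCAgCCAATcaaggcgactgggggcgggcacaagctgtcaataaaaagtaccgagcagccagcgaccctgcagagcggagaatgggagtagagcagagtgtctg
Gpt2, chr8:85492326-85492625, plus strand: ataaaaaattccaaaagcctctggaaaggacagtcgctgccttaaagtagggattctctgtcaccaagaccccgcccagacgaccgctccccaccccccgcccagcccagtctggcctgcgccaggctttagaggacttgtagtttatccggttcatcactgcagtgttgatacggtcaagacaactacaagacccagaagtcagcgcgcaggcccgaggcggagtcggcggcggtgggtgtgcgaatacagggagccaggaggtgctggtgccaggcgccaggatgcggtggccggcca
Got1, chr19:43524556-43524855, minus strand: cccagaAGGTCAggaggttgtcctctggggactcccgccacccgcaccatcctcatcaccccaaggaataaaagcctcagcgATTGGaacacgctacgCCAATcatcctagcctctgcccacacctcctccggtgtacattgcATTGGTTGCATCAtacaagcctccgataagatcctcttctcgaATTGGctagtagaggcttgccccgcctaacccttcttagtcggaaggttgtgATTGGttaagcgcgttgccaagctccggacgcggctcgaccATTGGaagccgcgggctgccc

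Glul and Gpt2 stood higher in the C26 muscle, Got1 and Gpt a little lower, and Glud1 and Got2 close to even. None of the 6 genes reached 2-fold in either direction, and 2 of 6, Glul and Gpt2, were at least 1.5-fold higher. Of 19694 genes measured (well above background on both arrays), 1.25% passed 2-fold upward and 1.15% downward, and 4.37% and 4.83% passed 1.5-fold. Among the 4541 measured genes whose brightest probe was at least as bright as the dimmest of the 6 enzymes on both arrays, 0.705% passed 2-fold upward and 0.176% downward, and 2.73% and 1.41% passed 1.5-fold. The median log2 ratio of the 6 genes was 0.07, against 0.04 over all measured genes.

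**Figure D1:**
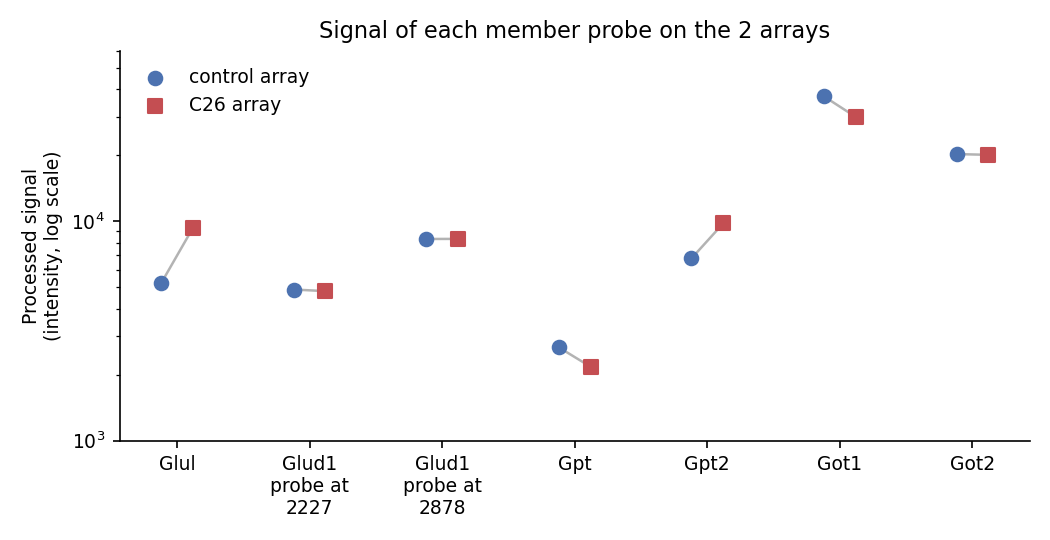
Processed signal (intensity, log axis) of the 7 probes on the control array (circles) and the C26 array (squares), 1 spot per array and before scaling. The C26 squares lie above the control circles for Glul (9332 against 5215) and Gpt2 (9792 against 6774) and below for Gpt (2172 against 2664) and Got1 (29922 against 37149); heights of different probes are not comparable with each other.

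Glutamine synthetase, Glul, joins ammonia to glutamate and is the enzyme that makes glutamine. Its probe had a processed signal of 5215 in control and 9332 in C26 muscle. After each array was scaled to its own 75th percentile, a signal of 262 in control and 249 in C26, the log2 ratio of C26 over control was 0.91, or 1.88-fold higher. The scanner error carried to the log2 scale was 0.20. Of all measured genes, 1.58% had a higher ratio than Glul. Under 8 other settings of background, scaling, source table and probe rule the ratio lay between 0.80 and 0.91, past 1.5-fold in each.

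That error of 0.20 was the same for all 7 probes, because the scanner software assigns bright spots a fixed fraction of their signal, 0.1 per the file headers. A measured figure was available from probes printed in at least 8 copies. For the 47 of these that were at least as bright as the dimmest of the 6 enzymes, the standard deviation of the log2 ratio between copies had a median of 0.04 and a highest value of 0.08. Both figures cover spots on these arrays and leave out the spread between mice, which 1 array per group cannot give.

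Glutamate dehydrogenase, Glud1, sits in the mitochondrial matrix and interconverts glutamate with 2-oxoglutarate and free ammonia. The probe at base 2878 read 8313 in control and 8321 in C26, a log2 ratio of 0.07. The probe at base 2227 read 4890 and 4807, a log2 ratio of 0.05. Both ratios were smaller than the scanner error, and the probes differed from each other by 0.03. The sign of the gene's value turned below 0 under 3 of the 8 other settings, and it lay between -0.04 and 0.07.

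The alanine aminotransferases move the amino group of glutamate to pyruvate and so make alanine. The cytosolic form is Gpt and the mitochondrial form Gpt2. The Gpt2 probe read 6774 in control and 9792 in C26, a log2 ratio of 0.60 and 1.52-fold higher, with 3.99% of measured genes above it. Across the 8 other settings it lay between 0.50 and 0.60 and kept its direction, but it reached 1.5-fold in only 2 of them. These were the mean over probes and outlier spots kept, which leave a gene with 1 unflagged probe nearly unchanged. Under every change of background correction, scaling or source table it stayed below 1.5-fold, at most 0.58 with normexp background correction.

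The cytosolic Gpt had a ratio below 0. Its probe, the dimmest of the 7, read 2664 in control and 2172 in C26, a log2 ratio of -0.22. Its spot was still 33.1 times the local background in C26 and 41.3 times in control. The ratio lay between -0.31 and -0.21 under the other settings, a size close to the scanner error and below 1.5-fold throughout.

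The 2 alanine-making forms therefore differed from each other within the same pair of arrays. The ratio of Gpt minus that of Gpt2 was -0.83 on the log2 scale, with a combined scanner error of 0.29, and between -0.83 and -0.79 over all 9 settings. A shift that is common to every probe of an array cancels in this difference. It shows that the 2 ratios were unequal and nothing on which mRNA differed.

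The aspartate aminotransferases move the amino group of glutamate to oxaloacetate to give aspartate, and are part of the malate-aspartate shuttle that carries reducing equivalents into mitochondria. The cytosolic Got1 had the brightest spot of the 7, at 37149 in control and 29922 in C26, a log2 ratio of -0.24 (error 0.20). It was the member that moved most with the settings, between -0.42 and -0.24, the lower end with the deposited value table and quantile normalization. The mitochondrial Got2 read 20277 and 20113, a log2 ratio of 0.06, and its sign turned below 0 in 3 of the 8 other settings. The ratio of Got1 minus that of Got2 was -0.30 (combined error 0.29) and between -0.35 and -0.29 over the 9 settings.

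**Figure D2:**
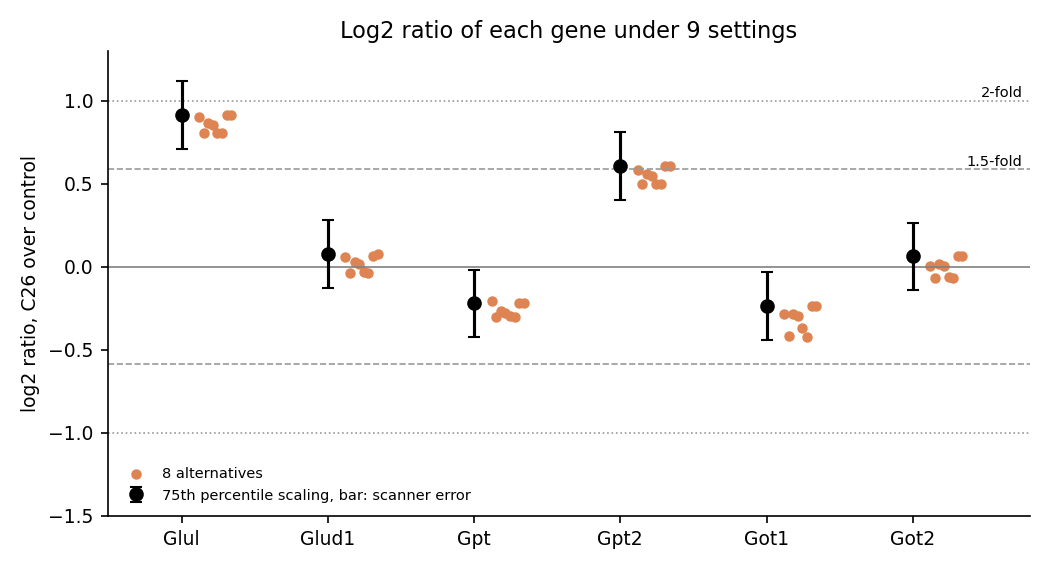
Log2 ratio of C26 over control for each of the 6 genes: the black point is the value after 75th percentile scaling, its bar the scanner error of 0.20, and the 8 orange points are the other settings. Dashed and dotted lines mark 1.5-fold and 2-fold. Glul lies past 1.5-fold in every setting and short of 2-fold, Gpt2 lies about the 1.5-fold line, and the rest stay inside it.

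Read by compartment, the 2 cytosolic transaminases had log2 ratios of -0.22 and -0.24, and the mitochondrial enzymes 0.07 for Glud1, 0.06 for Got2 and 0.60 for Gpt2. Glul, which is cytosolic in mammalian muscle, had 0.91, so the compartment did not divide the 6 genes. Among named genes, the ratio nearest to that of Glul was that of Otub2 at 0.91, followed by F2 and Olfr1466, with 55 named genes within 0.05 of it. This likeness rests on 2 arrays and carries no more than a shared ratio.

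The substrates of these enzymes reach or leave the fibre through amino acid transporters. Of 20 listed transporters of glutamine, alanine and glutamate, 17 were measured, none was 2-fold different, 3 passed 1.5-fold upward and 1 downward, with a median log2 ratio of 0.13. Over the settings 2 to 3 passed upward and 0 to 3 downward. Slc38a2, the amino acid-responsive carrier of alanine and glutamine known as SNAT2, was highest at 0.95 (1.94-fold), from signals of 4201 and 7738. Slc3a2, the heavy chain of several amino acid exchangers, had 0.69, and Slc1a5, a neutral amino acid exchanger that takes glutamine, 0.18. The lowest were Slc7a5 at -0.68, whose other probe gave 0.38, and Slc38a1 at -0.57, from dim spots (95.2 and 61.0).

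Enzymes that use or yield glutamate or glutamine were listed together with some that do neither, such as Prodh and Pycr1. Their ratios were mixed. Of 29 listed, 25 were measured, 1 was at least 2-fold higher, none 2-fold lower, 2 passed 1.5-fold upward and 1 downward, and the median log2 ratio was 0.01, between -0.05 and 0.02 over the settings. Asns, which spends glutamine to make asparagine, had 1.08 and 0.92, under 2-fold, at its lowest setting. Prodh, the first enzyme of proline breakdown, had 0.96. Among the listed genes past 1.5-fold in either direction, only Asns encodes an enzyme that itself uses or yields glutamate or glutamine. Pycr1, which makes proline, was lowest at -0.77 from dim spots (72.2 and 40.2), and Ppat, which uses glutamine to start purine synthesis, had -0.35 with a further probe at 0.00485.

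Other genes of the shuttle that employs Got1 and Got2 were listed together with mitochondrial glutamate carriers, which are not part of it. Of these 7 genes 6 were measured and 5 were below 0, with a median of -0.17, 1 past 1.5-fold upward and none downward. The lowest were Slc25a13, an aspartate-glutamate carrier with dim spots here, at -0.45 and the malate dehydrogenase Mdh2 at -0.18, and the highest were Slc25a22, a glutamate carrier from outside the shuttle, at 0.67 and the shuttle's aspartate-glutamate carrier Slc25a12 at -0.11. The 9 measured genes of 11 listed for the purine nucleotide cycle and aspartate use had a median of -0.11, 7 of them below 0 and none past 1.5-fold. At the top were Asrgl1 at 0.51, from dim spots (58.0 and 78.7) and between 0.18 and 0.51 over the settings, and Ass1 at 0.17. At the bottom were Ampd2 at -0.40, with a further probe at 0.06, and Ampd3 at -0.38, from dim spots (55.6 and 40.6).

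Nitrogen donors and pyruvate are the other inputs. All 7 listed genes of branched-chain amino acid transamination and oxidation were measured and none passed 1.5-fold. Bcat2, the mitochondrial transaminase that hands branched-chain nitrogen to glutamate, had 0.02, a sign that turned with the scaling, against 0.30 for Bckdha, 0.20 for Bckdk, -0.48 for Ppm1k and -0.42 for Bcat1. The Bcat1 value came from dim spots (29.0 and 20.6), had a scanner error of 0.39 and lay between -0.50 and -0.13 over the settings. Of 15 genes of pyruvate supply and use, 14 were measured with a median of -0.06. Pdk4, which keeps pyruvate out of the pyruvate dehydrogenase complex, was the 1 of these 14 past 1.5-fold, at 2.26, ahead of Pdk2 at 0.29. The lowest, both from dim spots, were Pdk3 at -0.25 (34.9 and 27.9) and Me2 at -0.21 (86.7 and 71.5).

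Genes known to respond to glucocorticoids and FoxO factors had the highest median of the pathway lists. Of 17 listed, 16 were measured, 9 were at least 2-fold and 11 at least 1.5-fold higher, none was lower than even after 75th percentile scaling, and the median was 1.38. The list was drawn up with earlier results of these arrays known, so it is no independent evidence of its direction. Fbxo32 and Fkbp5 stood at 2.58 and 2.37 and Foxo1 at 1.64, while Klf15 had 0.45 and Nr3c1, the glucocorticoid receptor, 0.15 with a further probe at 0.60. The lowest after Nr3c1 was Per1 at 0.20, whose other probe gave -0.47. Of 15 listed ATF4 targets, 12 were measured, 2 were at least 2-fold higher, and the median was 0.24, from Chac1 at 1.61 and Asns at 1.08 to Cth at -0.20 and Ddit3 at -0.29. Atf4 itself had 0.45. Whether either group bears on Glul or Gpt2 was not tested.

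**Figure D3:**
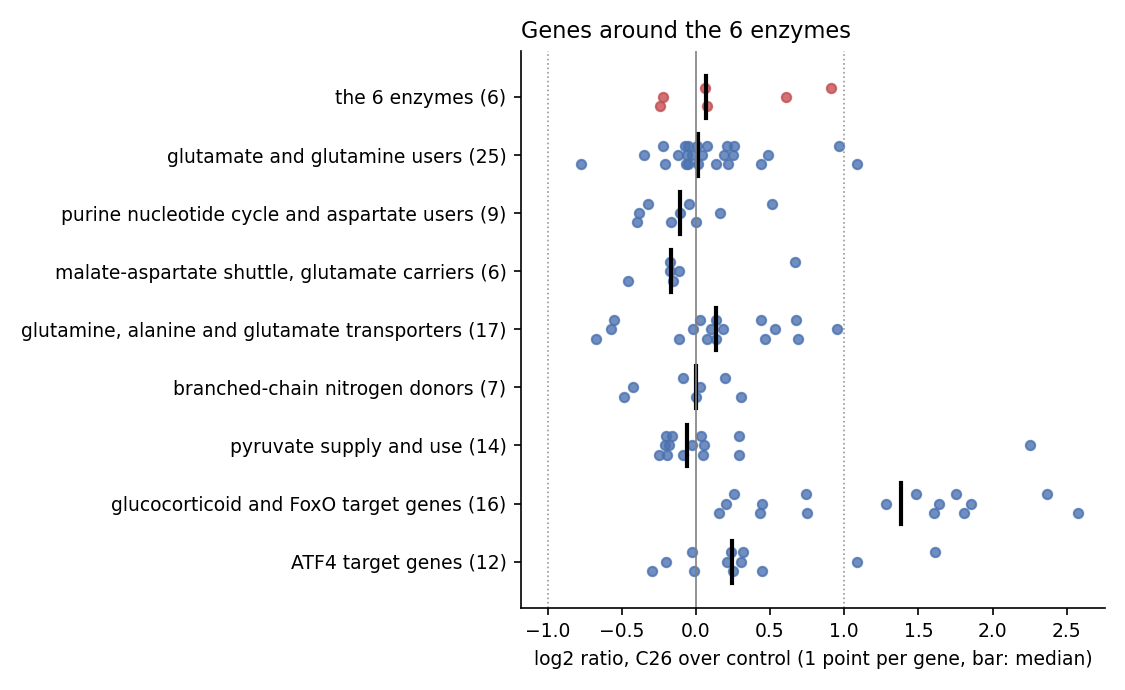
Log2 ratios of C26 over control for the 6 enzymes and the measured genes of each pathway list, cell type markers left out (1 point per gene, number of measured genes in brackets, black bar at the median, dotted lines at 2-fold). The 6 enzymes run from -0.24 to 0.91 about a median of 0.07, and the glucocorticoid and FoxO targets have the highest median of the lists drawn, 1.38.

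The promoter windows shown above were searched on both strands for 7 motifs. Neither the glucocorticoid receptor half-site AGAACA, found in 19% of 32851 windows, nor the FoxO element GTAAACA, found in 3.65%, was among the letters of any of the 5 windows. The Glul window held CCAAT at 2 places, 113 and 50 bases before the start, and AGGTCA 57 bases before it. CCAAT is found in 37.4% of windows and AGGTCA in 16.3%. The Gpt2 window held none of the 7.

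The Got1 window held CCAAT 6 times, a count reached by 26 of the 32851 windows (0.0791%). It also held AGGTCA 244 bases before the start. On the minus strand it held TGATGNAA, which is found in 3.97% of windows. This TGATGNAA match directly adjoins one of the CCAAT matches without sharing a base with it. The Got2 window held AGGTCA and TATAAA, which is in 13.6% of windows, on the minus strand, and no CCAAT. The E-box CANNTG is in 72.3% of windows and was found in those of Glul, Glud1 and Got2. The Glud1 window was 81% G or C with 51 CG pairs, against medians of 52.7% and 7 over all windows. These are matches of letters and do not show binding.

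**Figure D4:**
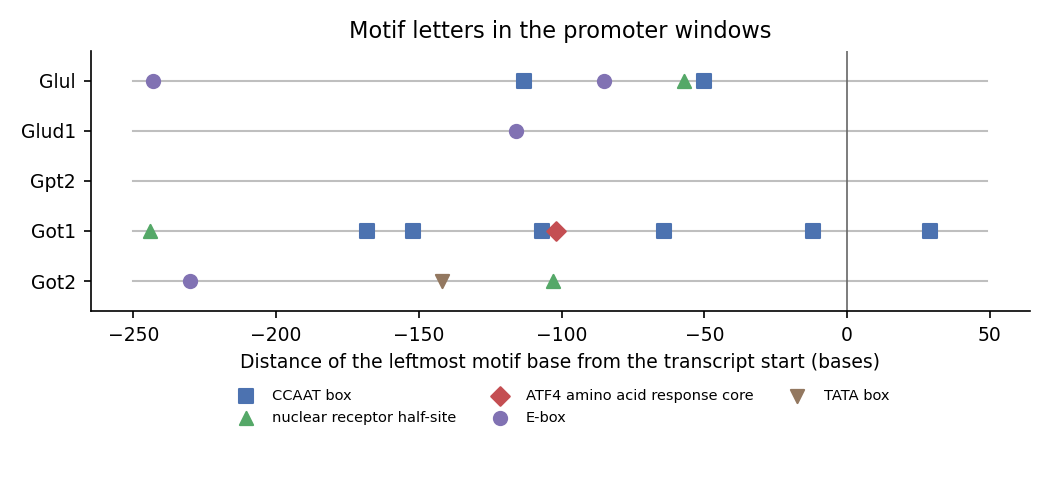
Places of motif letters in the promoter windows of the 5 matched genes, as the distance in bases of the leftmost motif base from the transcript start (vertical line). Got1 carries 6 CCAAT matches, Glul 2, and Gpt2 has no match to any of the 7 motifs.

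The samples carried the markers of skeletal muscle, and markers of other cell types differed between the arrays. All 15 muscle fibre markers were well above background on both arrays, with a median log2 ratio of 0.05 and none past 1.5-fold. Their summed signal was 2841900 in control and 2790420 in C26, and after scaling the sum was 1.03-fold higher in C26. Summed signals here and below are before scaling, while the ratios are after it. In whole muscle, fewer cells of a type and less RNA per cell cannot be told apart. All 12 endothelial markers were measured and had ratios above 0 (median 0.38, 4 past 1.5-fold, summed signal 24058 and 30916), and 9 to 12 of them did over the settings. Kdr, the lowest at 0.01, had a further probe at -0.63. Of the 10 adipocyte markers, all measured, 8 were above 0 (median 0.44, 3 past 1.5-fold upward and 1, Lep, downward, summed signal 92298 and 136640). Lep had -0.66 from dim spots (29.9 and 18.0) and lay between -0.74 and -0.17 over the settings. Within the sum, Plin4 read 18756 and 39372 and Lpl 22650 and 31803. Adipoq had a log2 ratio of 0.31, Retn 0.03 and Plin1 -0.04. The 6 measured of 10 erythroid markers were all above 0 (median 1.59, summed signal 110412 and 271399), and Epb42 and Ahsp were among the 4 not well above background on both arrays.

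Macrophage markers lay lower, 10 of 11 measured being below 0 (median -0.23, 4 past 1.5-fold, summed signal 15424 and 11700), with Cd163 not well above background on both arrays. Fibroblast markers were below 0 in 9 of 10 (median -0.59, 5 past 1.5-fold, summed signal 164478 and 105809). Of 9 neutrophil markers 5 were measured (median 0.36), S100a8 and S100a9 being at least 2-fold higher at 2.46 and 2.35. The summed signal of the 5 was 33615 and 27912, mostly from Csf3r, which read 33121 and 26235, with Ngp, Ltf, Mmp9 and Cxcr2 not well above background on both arrays. The 9 Schwann cell markers had a median of -0.13 (summed signal 9276 and 8225). Glutamine synthetase is also made by fat, endothelial and immune cells, and the part of any of these cells in the ratios of Glul and Gpt2 was not tested.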

How the data were processed

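Skeletal muscle RNA labelled with Cy3 was measured on 2 one-colour arrays of 1 slide with the same scan time, 1 control and 1 C26. The authors' scans were read with version 10.7.1.1 of Agilent Feature Extraction per the file headers, and with version 9.5.1.1 per the submitters' processing notes. The deposited processed signal is a linear intensity. Background subtraction with spatial detrending, multiplicative detrending within each array and surrogates for low spots were applied, per the file headers. Surrogates made up 31.9% of non-control spots in control and 25.6% in C26, and none of the 7 probes, all well above background. The value table deposited by the authors also holds intensity, linear and not centred; both columns have a median of 19.75, 99.9% of its values lie within 0.01 (log2) of the quantile-normalized processed signal, and no source used here says how it was made.

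Of 59305 non-control spots, those flagged as outliers were left out (110 and 91) and no spot was saturated. Copies of a probe were averaged as log2 values, each array's 75th percentile over non-control probes was subtracted, and the ratio is C26 minus control. A gene takes its brightest probe among those well above background on both arrays. Of 55680 probes, 31381 found a match in the RefSeq table (GRCm38.p6), used for names only, and took their gene names from it. The others kept the names in the files. Probe positions are on mm9, as the files give them. With 1 array per group no test was run. Sizes of 1.5-fold and 2-fold were used instead, and the number of arrays limits the precision. Scaling and gene choice were checked on simulated data.

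Genes named are the 6 enzymes, the 2 measured genes at either end of each pathway list (examples in the text), 10 others fixed by name (the value of 1 of which is not reported here), and the 3 genes with the ratio nearest to that of Glul. Members, lists and motifs were chosen with earlier results of these data known. Alternatives were normexp background correction (offset 50), quantile normalization, scaling by the median or by the 75th percentile of probes well above background, loess (span 0.3), the deposited table, the mean over probes, outlier spots kept, 1.5-fold as the size and no filter on dim probes. Python 3.11.15, numpy 2.4.6, pandas 2.3.3, statsmodels 0.14.6, matplotlib 3.10.9 and R 4.3.3 with limma 3.58.1 were used.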

Additional observations from a re-analysis of the deposited data

How the results depend on the processing

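The values of the 6 enzymes moved by less than the scanner error of 0.20 under each of the 8 alternatives compared for them. Some of these could hardly move them. The mean over probes leaves a gene with 1 probe as it was, and no member spot was flagged as an outlier. The deposited table lay close to quantile normalization. Glul, Gpt, Gpt2 and Got1 kept their direction, and Glud1 and Got2, near 0, did not under quantile normalization, loess and the deposited table. No member was 2-fold different under any of these, and with 1.5-fold as the size 2 members were higher, as against 0 at 2-fold. Over all measured genes, the 246 higher and 226 lower at 2-fold became 130 and 65 after normexp correction, 1579 and 1316 when dim probes were kept, and 860 and 952 at 1.5-fold. The last pair follows from the size. The one before it was counted over 34740 genes in place of 19694, and what else raised it was not tested. The cause of the first was not tested either. At 2-fold, higher genes outnumbered lower ones after 75th percentile scaling and not under the other scalings, with 211 to 222 higher against 244 to 277 lower. No paired analysis was possible because each group holds 1 array. The errors cover spots alone, and spread between animals is unknown.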

Other observations

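Genes that link proline and ornithine to glutamate were looked at after their values were seen, and the values are descriptions of 2 arrays. Prodh, which starts proline breakdown toward glutamate, read 976 in control and 1810 in C26, a log2 ratio of 0.96 (1.95-fold), and lay between 0.86 and 0.96 over the settings. Oat, which turns ornithine and 2-oxoglutarate into glutamate and the shared proline intermediate, read 4990 and 6645, a log2 ratio of 0.49. Aldh4a1, which completes proline breakdown to glutamate, read 3277 and 2960, a log2 ratio of -0.07. On the making side, Pycr1 had -0.77 but lay between -0.83 and -0.37 over the settings, from dim spots, and Aldh18a1 was not well above background on both arrays.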
